A study of Mus musculus with 12 samples.

Results

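The CpGs described here are those that carried high methylation in every sample of the series. A position on an autosome was a member when it had 10 or more reads in each of the 12 samples and when 80% or more of those reads were methylated in each. This held for 3240 of the 37218 positions with 10 or more reads in all 12 samples, or 8.71% (95% Wilson interval 8.42 to 9.0). At the other end, 17594 positions had 20% or less in every sample, and 16384 lay in neither set. A position is a CpG cytosine on 1 strand, so a CpG can hold 2 positions, and the 3240 members lay in 3238 CpGs. The measured percentages chose the members, so their high levels are described and not tested.

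The 12 samples were oral soft tissue of female B6C3F1/J mice that were 8 weeks old at the start. The buccal mucosa, the floor of the mouth and the tissue attached to the hard palate were pooled for DNA extraction, so each value is an average over several cell types. There were 4 groups of 3 samples: mice given the vehicle DMSO, mice given DBP (the hydrocarbon carcinogen dibenzo[a,l]pyrene), mice given DBP together with a chemopreventive agent left unnamed in the labels (DBP_agent), and mice given DBP together with BR extract, also labelled a chemopreventive agent (DBP_BR). A dose of 24 nmol DBP was placed in the oral cavity on 3 days of each week over 5 weeks, and tissue was taken 48 h after the last dose. The labels do not state whether a sample is 1 animal, so no test here is known to measure the spread between animals.

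Methylation of cytosine in CpG dinucleotides is written by DNA methyltransferases and is copied to the new strand after replication. In mammalian tissues most CpGs far from genes and inside gene bodies are methylated, whereas the dense CpG clusters at gene starts, the CpG islands, are mostly free of it. Promoters of genes used only in germ cells are a known exception, since many are methylated in somatic tissue.

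Stretches of the mm9 genome that hold members are printed here because they carry the methylated promoters and the largest runs of members. They are written on the plus strand, 5′ to 3′, with each CpG that holds a member in capitals.
Sohlh2, chr3:54985992-54986102: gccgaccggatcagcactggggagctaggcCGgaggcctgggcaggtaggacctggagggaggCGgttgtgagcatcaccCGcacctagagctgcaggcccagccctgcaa
Tuba3b, chr6:145564461-145564490: cctgccccCGagaCGctctggactaatgag
Arid1b, chr17:5342047-5342239: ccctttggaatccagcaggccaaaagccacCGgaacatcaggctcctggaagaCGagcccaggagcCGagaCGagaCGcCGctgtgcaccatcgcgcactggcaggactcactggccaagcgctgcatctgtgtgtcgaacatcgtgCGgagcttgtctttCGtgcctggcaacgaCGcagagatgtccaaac
Cxadr, chr16:78335050-78335139: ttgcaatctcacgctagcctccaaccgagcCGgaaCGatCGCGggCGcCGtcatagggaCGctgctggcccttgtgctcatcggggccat
The Sohlh2 stretch starts in the first coding exon and runs into the intron after it, and 3 of its 5 CpGs were read in all samples and were members. The Tuba3b stretch lies in an annotated untranslated exon and shows 2 of its 4 members. The Arid1b stretch is coding sequence with 9 members among 10 positions read. The Cxadr stretch is mostly coding sequence, and all 7 positions read in it were members.

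The libraries differed widely in depth. They held 3287367 to 78889043 CpG calls, and the median depth at members was 17 to 32 reads in the DMSO and DBP samples and 41 to 107 reads in the DBP_agent and DBP_BR samples. Depth and group therefore cannot be told apart between these pairs of groups. DBP_BR sample 1 had the most calls but a median of only 41 reads at members, and it was the only sample below 80% at 256 positions, the most of any sample (range 72 to 256). At 10 reads, 3 reads make up 30%, and intervals here cover counting error only, since reads amplified by PCR and lacking molecular identifiers do not stand for separate molecules.

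Over members and samples the mean methylation level was 94.1%. The sample means were 93.1%, 93.8% and 93.8% in DMSO and 93.7%, 93.4% and 93.4% in DBP. They were 94.5%, 94.5% and 95.1% in DBP_agent and 95.1%, 94.9% and 94.6% in DBP_BR. Every sample of the deeper groups was thus above every DMSO and DBP sample. The standard deviation of a member over the 12 samples had a median of 4.68 points, against 3.54 points expected from binomial counting alone. In 447 members the level was 90% or more in all samples, and in 4 members every read in every sample was methylated. One of these 4 was at chr13:34838748-34838748 on mm9, in a coding exon with Fam50b as the nearest start, with 12 to 115 reads per sample.

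The rule has a sharp edge that cuts through counting error. Of all positions, 1892 met the level in 11 samples and missed it in 1, and 1461 of those were at 70% or more in the sample they missed. Among members, 265 had a lowest sample of exactly 80%. One of the members just inside, between genes at chr1:22068558-22068558 with Kcnq5 as the nearest start, was at 80% in DMSO sample 3 with 8 of 10 reads methylated (Wilson interval 49.0 to 94.3). Its other 11 samples were at 92.9% to 100%. Another, in an intron with Dst as the nearest start, was at 80% in DBP_agent sample 3 with 48 of 60 reads (68.2 to 88.2). Just outside, a position between genes at chr4:134580362-134580362 was at 79.9% in DBP_BR sample 2 with 119 of 149 reads (72.7 to 85.5), while its other samples ran from 80.6% to 100%. A position at chr3:61446576-61446576 was likewise at 79.9% in DBP sample 3. These neighbours of the limit do not differ beyond their intervals.

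Positions chosen in some groups can be read in the groups that did not choose them. Of 4596 positions at 80% or more in all DMSO and DBP samples, 94.2% ± 2.13 (SD, n = 3) were at 80% or more in a DBP_agent sample and 92.0% ± 1.70 in a DBP_BR sample. Of 4549 positions chosen on DBP_agent and DBP_BR, 92.9% ± 2.06 were so in a DMSO sample and 93.9% ± 0.449 in a DBP sample. Most positions that were high in one pair of groups were thus high in the other pair as well.

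MspI, the enzyme used to cut the DNA, recognises CCGG, and a read starts at the CpG cytosine of that site. Of the members, 1762 (54.4%) lay in a CCGG, against 29.7% of all positions covered and 16 of the 17594 positions at 20% or less. Of the 16384 positions in neither set 56.6% did, so a high share in CCGG was not particular to the members. The level at this cytosine rose with the level further along the same strand, but from a higher base at the low end. Where the next positions within 50 bases averaged under 1%, the CCGG cytosine averaged 26.1% over 2447 sites. Where they averaged 20% to 50%, it averaged 57.2%, and where they averaged over 95%, it averaged 92.4%. At the sites under 1%, all 12 samples showed this, from 23.8% to 31.4%. The cause was not tested, and its part in the results below was measured only by leaving these cytosines out, an alternative chosen after seeing the data.

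Of the CCGG members, 1071 had later positions to compare. In 934 of them (87.2%) those positions averaged 80% or more, in 12 they averaged under 50%, and the mean of the later positions was 89.0% against 93.3% at the CCGG cytosine. The rule required 80% or more of the CCGG cytosine and not of the later positions, so nothing is read from this difference. Over all 1646 sites, members or not, whose later positions averaged 80% to 95%, the means were 88.8% for those and 88.9% for the CCGG cytosine. The difference between the groups in member means was larger at members inside CCGG. Members inside CCGG averaged 92.4% ± 0.477 in DMSO, 92.3% ± 0.128 in DBP, 94.2% ± 0.158 in DBP_agent and 94.1% ± 0.102 in DBP_BR (SD, n = 3). The 1478 members outside CCGG averaged 95% ± 0.295, 94.9% ± 0.241, 95.3% ± 0.548 and 95.8% ± 0.419 in the same order, and there DBP_agent overlapped the DMSO and DBP samples. The plot of member means by sample shows both sets beside the depth of each library.

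**Figure D1:**
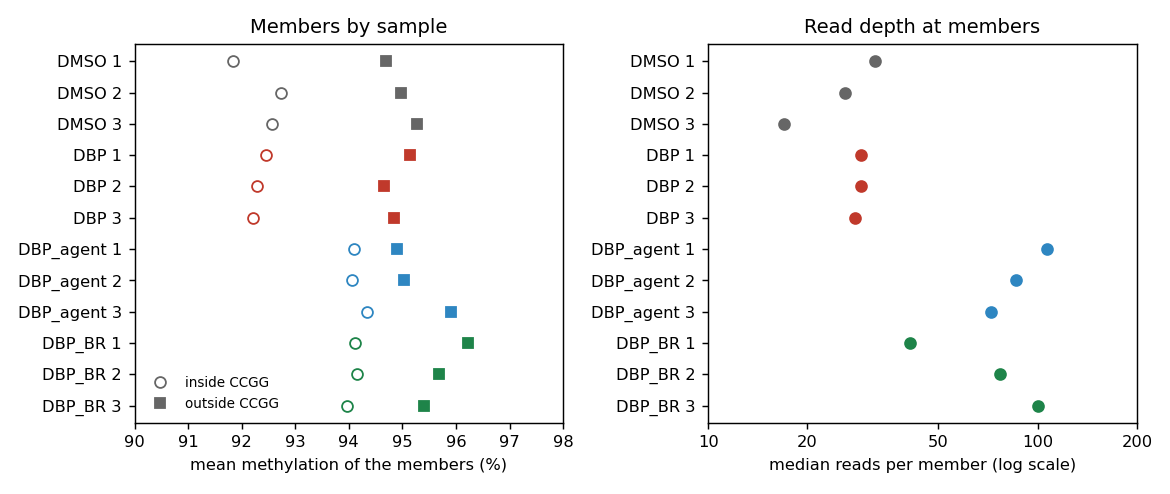
Left, the mean methylation level (%) of members inside CCGG (open circles) and outside CCGG (squares) in each sample, on an axis from 90% to 98%. Right, the median number of reads per member on a log axis; colours mark the 4 groups. The open circles of DBP_agent and DBP_BR, at 94.0% to 94.3%, sit above those of DMSO and DBP, at 91.8% to 92.7%, and the same 6 samples are the deeper ones.

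**Figure D2:**
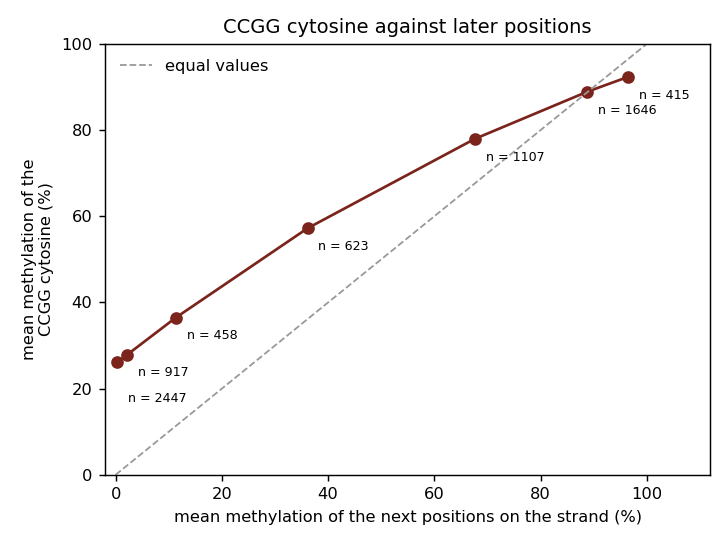
Mean methylation (%) of the cytosine in CCGG, averaged over the 12 samples, against the mean (%) of the next positions within 50 bases on the same strand, in 7 classes of the latter; n is the number of sites and the dashed line marks equal values. The class under 1% sits at 26.1% and the class over 95% at 92.4%.

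Members lay away from promoters. A promoter here is the 1000 bp on either side of the start of a protein-coding transcript (GENCODE vM1 on mm9), and 151 members (4.66%) lay in one, against 52.1% of all covered positions and 82.5% of the positions at 20% or less. Members were found instead between genes (37.1% against 18.8% of all covered), in introns (29.8% against 15.1%) and in coding exons (23.2% against 10.5%). Positions in neither set lay between these values, with 28.8% in promoters, 28.0% between genes, 24.7% in introns and 14.1% in coding exons. Read the other way, 0.779% of the promoter positions were members, against 19.2% of those in coding exons, 17.2% of those in introns and 17.2% of those between genes. Without the CCGG cytosines the shares of members were 5.89% in promoters, 27.7% in coding exons, 26.6% in introns and 34.8% between genes, against 60.4%, 10.4%, 10.9% and 15.1% of all covered positions. Every one of these contrasts with all covered positions kept its direction.

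**Figure D3:**
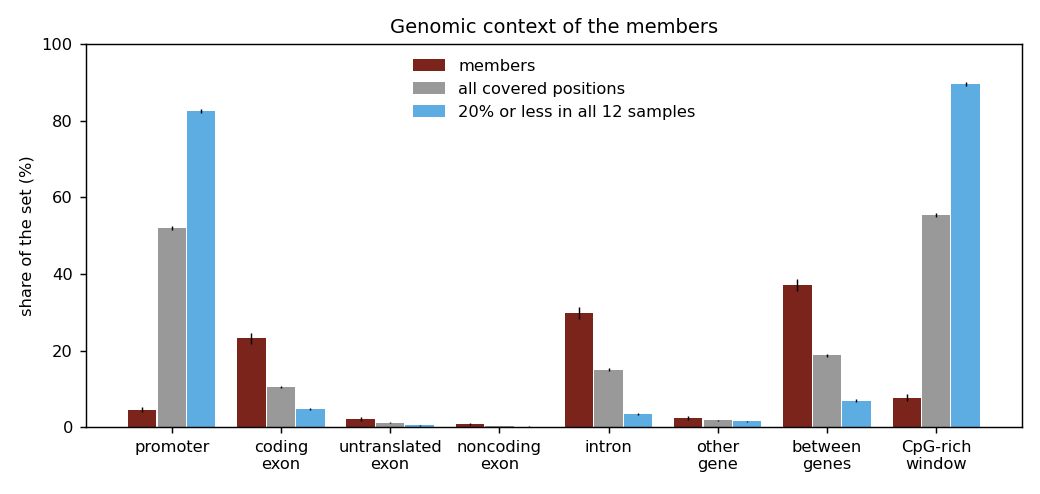
Share (%) of the members, of all covered positions and of the positions at 20% or less in every sample that lay in each class of the annotation, and in a CpG-rich window; bars carry 95% Wilson intervals. The promoter bar is 4.66% for members and 52.1% for all covered positions.

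The members' surroundings held few CpGs. The window of 250 bases on either side of a member held a median of 12 CpGs (quartiles 8 and 17), against 30 around all covered positions and 45 around those at 20% or less. Around the 16384 positions in neither set the median was 15 (quartiles 10 and 29), so few CpGs were not particular to the members. A window with a GC content of 50% or more and an observed-to-expected CpG ratio of 0.6 or more, the usual signature of a CpG island, surrounded 7.78% of members and 55.5% of all covered positions. Such a window surrounded 28.3% of the positions in neither set. The share of covered positions that were members was 21.3% where the window held under 10 CpGs, 19.2% at 10 to 19, 8.96% at 20 to 29 and 1.86% at 30 to 39. It was 0.0948% at 40 to 59 (9 positions), and 0 of the 3995 positions with 60 or more was a member, which allows a share of up to 0.0751% by the floor of 3 counts. Outside CCGG the median was 14 CpGs for members and 36 for all covered positions. Within the members, level and density were only loosely tied: the mean was 93.6% below 10 CpGs, 94.3% at 10 to 19 and 94.8% at 20 to 29.

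Distance to the nearest transcript start gave the same order. It was 23208 bp at the median for members, 806 bp for all covered positions and 244 bp for those at 20% or less. For positions in neither set it was 7864.5 bp. Of the positions within 200 bp of a start, 0.437% were members (43 of 9844), and beyond 20000 bp 20.7% were. Among the 19 autosomes the share of members ran from 5.67% on chromosome 19 to 11.2% on chromosome 10.

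Members lay close together. Around a member, 52.3% of the covered positions at 2 to 50 bp were members too, against 4.11% around any covered position. Such positions can be on the same read of 50 bases, but the share was also 56.8% at over 50 to 100 bp (74 pairs), 46.8% at up to 200 bp, 47.4% at up to 500 bp and 53.3% at up to 1000 bp (244 pairs from 89 members). It was 19.6% from there to 5000 bp and 8.11% beyond 20000 bp, where the share around any covered position was 7.51%. From 2 to 1000 bp together the share was 51.7%, and it was 53.4% without the CCGG cytosines. All these shares count pairs, so positions with many covered neighbours weigh more in them. The 4.11% around any covered position at 2 to 50 bp was below the 8.71% of covered positions that were members.

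**Figure D4:**
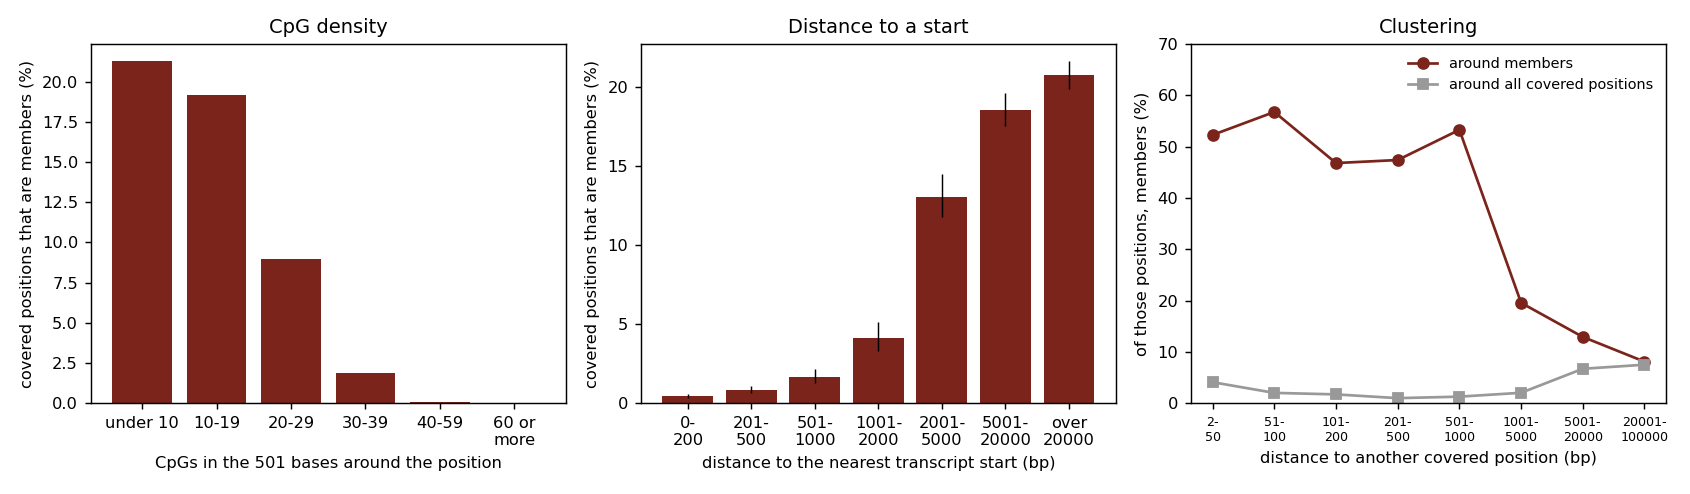
Left and middle, the share (%) of covered positions that were members by the number of CpGs within 250 bases on either side and by distance to the nearest transcript start (bp; bars with 95% Wilson intervals). Right, the share (%) of covered positions at each distance that were members, around members (circles) and around all covered positions (squares); the lines lie at 53.3% and 1.29% at over 500 to 1000 bp and at 8.11% and 7.51% beyond 20000 bp.

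Positions near members that were not read deeply enough in all samples to enter the rule were also high. At over 50 to 200 bp from a member they averaged 88.8% ± 0.467 (SD, n = 12 samples), against 17.3% ± 2.32 at the same distance from any covered position. At over 200 to 1000 bp the values were 82.1% ± 1.24 and 15.3% ± 2.96. On the opposite strand of a member's CpG, the cytosine averaged 91.9% ± 1.90 where it had 10 or more reads in that sample (14 to 199 positions per sample), against 48.0% ± 3.05 opposite any covered position. These reads did not enter the rule.

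Members chained at gaps of 200 bp or less, with no covered non-member between them, formed 2415 groups. Of these, 1845 were lone members and 570 held 2 or more, which took in 1395 members (43.1%), and 20 held 5 or more. The largest run held 8 members over 133 bp at chr17:5342077-5342209, in a coding exon of Arid1b, a DNA-binding subunit of the BAF chromatin remodelling complex. Its sample means were 96.8%, 95.7% and 96.3% in DMSO, 92.8%, 95.6% and 95.9% in DBP, 94.5%, 95.9% and 95.1% in DBP_agent, and 94.5%, 93.7% and 96.5% in DBP_BR. The groups overlapped.

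The second run held 7 members over 30 bp at chr16:78335080-78335109, in a coding exon of Cxadr, the coxsackievirus and adenovirus receptor of epithelial junctions. It averaged 97.2% over the samples (93.7% to 100%). The 3 covered positions of Cxadr that were no members all lay within 1000 bp of a transcript start and averaged 0.171%, so start and body of this gene were at opposite ends of the scale. Runs of 6 followed in an intron of Macrod2, an ADP-ribosyl hydrolase (94.9%), in a coding exon of Ksr2, a scaffold protein of the Raf-MEK-ERK cascade (97.2%), and 7775 bp before a start of the proton channel gene Hvcn1 (95.6%).

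At least 1 covered position lay within the bounds of 5567 protein-coding genes, and 1183 of them held a member. Over all protein-coding genes 7.53% of the covered positions in gene bodies were members. A body here is the whole annotated stretch of a gene, so positions near its starts are counted in it. The gene with the most members was Gm20388 (23 of 354 positions), whose annotated bounds span 4435 kb across many other genes. Arid1b followed with 11 of 15, then Nphp4, which encodes a protein of the base of the cilium, with 10 of 29, Cxadr with 9 of 12 and Ksr2 with 9 of 17. In Arid1b the 4 other positions averaged 91.3%, and in Nphp4 the 19 others averaged 62.9%.

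Promoters were seldom among the members. Counting a promoter as read when it held 3 or more covered positions, 3035 genes had one, and in 2 of them (0.0659%) all positions were members. These were Tuba3b, an alpha-tubulin made mainly in the testis, and Sohlh2, a transcription factor of early germ cells. Counting these, 54 promoters held at least 1 member. By the mean over samples and positions, 53 promoters (1.75%) were at 80% or more and 2840 (93.6%) at 20% or less. Of the 53, 43 had no position in a CpG-rich window. That is 12.7% of the 338 promoters read without such a position, against 0.297% of the 2358 whose positions were all in one.

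The 4 positions of the Tuba3b promoter began 193 bp after the start on chromosome 6 (gene ENSMUSG00000067338.6, chr6:145564277-145569999). Their sample means were 95%, 99.2% and 100% in DMSO, 94.0%, 98.5% and 95% in DBP, 94.3%, 98.4% and 97.3% in DBP_agent, and 95.6%, 99.3% and 99.7% in DBP_BR, each position with 15 to 107 reads. The 3 positions of the Sohlh2 promoter lay 72 to 122 bp after the start on chromosome 3 (gene ENSMUSG00000027794.4, chr3:54985950-55013879). They averaged 91.5%, 98.1% and 97.8% in DMSO, 91.1%, 94.8% and 93.5% in DBP, 95.9%, 96.3% and 96.6% in DBP_agent, and 92.4%, 96.9% and 97.2% in DBP_BR. In Tuba3b the 4 groups overlapped. In Sohlh2 every DBP sample was below every DBP_agent sample, and the other pairs of groups overlapped. Sohlh2 is not read as a promoter without its CCGG cytosine, because 2 positions remain. Tuba3b stays methylated at its 3 remaining positions, and Ccdc85a, with 3 of 3 positions at a start that lies 7093 bp from its most upstream one, joins it.

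Several of the promoters with many members lie at inner starts. The Arid1b members, 9 of 11 promoter positions, are 363 bp from the start of a short transcript but 347138 bp after the most upstream start, in the coding sequence printed earlier. The 7 members of 9 positions counted for Rere, a nuclear receptor corepressor, lie 335395 bp after its most upstream start. Those of Sall4, a zinc finger factor of the early embryo and germ cells (3 of 6), lie 11684 bp after it. In 24 of the 54 promoters with a member, a member lay within 1000 bp of the most upstream start.

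Genes of the testis and early embryo were among those 54, and are named here after their values were seen. Ctcfl, the testis paralogue of the insulator protein CTCF, had 4 members of 7 positions, 1 of them 230 bp before its start. Its promoter averaged 83.8%, 88.8% and 89.5% in DMSO, 90.8%, 87.7% and 92.3% in DBP, 88.1%, 92.1% and 94.1% in DBP_agent, and 97.4%, 96.1% and 90% in DBP_BR. D1Pas1, a DEAD-box helicase gene used in the testis, had 4 of 7 (mean 94.1%, lowest sample 86.6%). Stra8, which is needed for entry into meiosis, had 2 of 4 (mean 92.8%) in a CpG-rich window. These Stra8 members count through an inner start, since the nearest lies 1027 bp after the most upstream one. Msgn1, a factor of the presomitic mesoderm, had 3 of 4 (mean 93.6%).

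CpG-rich windows at promoters held 35 members near 12 genes, which is 0.212% of the 16528 covered positions of that kind. Arid1b gave 9 of them, 4933415F23Rik 6, D1Pas1 4 and Sfi1 3. The genes Gm10800 (9 of 13 promoter positions members) and Sfi1 (3 of 5) were read more deeply than most, with a median of 130 reads and 582 reads per position, and their reads may come from several near-identical copies, so these values are uncertain. The same holds for 9 members with over 100 times the median reads of a covered position.

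**Figure D5:**
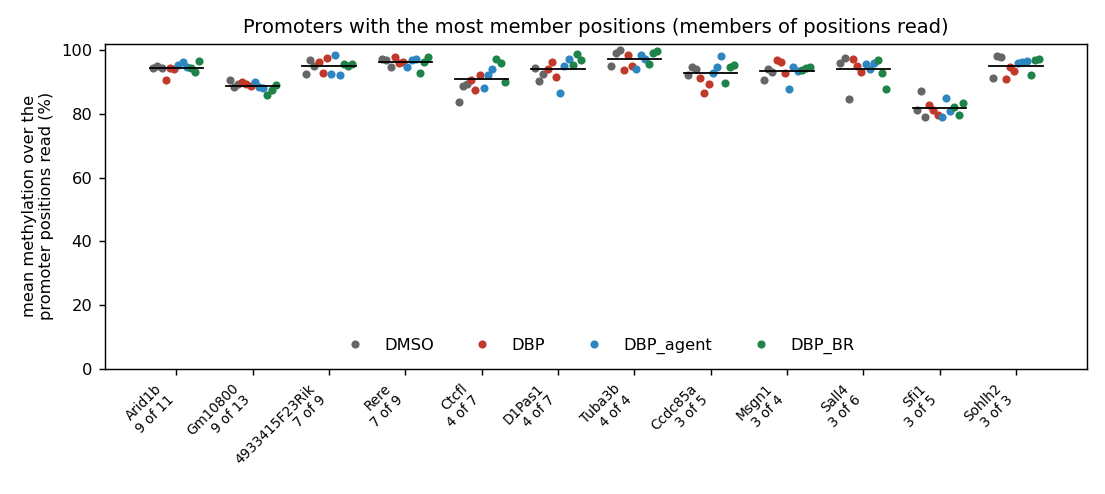
Mean methylation level (%) over the promoter positions read in each sample (points, coloured by group; black bars are means over the 12 samples) for the 12 promoters with the most members, with the members and the positions read under each symbol. All lie above 78%, and Sfi1 is the lowest at 81.8%.

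The gene lists used here were chosen with results of these data known, so their counts are descriptions. The germline list does not hold Sohlh2, Stra8 or D1Pas1, described earlier, so its counts leave them out. Of the 8 promoters read from this list, 1 (Tuba3b) was methylated throughout, 6 were mixed and 1 was at 20% or less at all positions, with a median of 81.1% against 4.99% over all 3035 promoters. The mixed ones included Tex101, a germ cell surface protein (86.6%), the meiotic mismatch repair gene Msh4 (86.4%) and Piwil2, which binds piRNAs (75.8%). Stag3, a meiotic cohesin subunit, was at 9.35%, Tdrd6, a protein of the chromatoid body, at 3.46%, and Tex15, needed for meiosis in males, at 0.514%. Genes of the list were thus found at both ends of the scale. Leaving out the CCGG cytosines kept 5 of these promoters, with Tuba3b at 98.1%, Ctcfl at 92.2%, Tdrd6 at 3.46%, Tex15 at 0.514% and Stag3 at 0.124%. Tex101, Msh4 and Piwil2, all among the higher ones, then had too few positions to be read. The median of those kept was 3.46%, against 0.349% over all promoters read without these cytosines. Its fall from 81.1% thus came with the loss of high promoters.

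Over all genes, 1.78% of the promoters read held a member (54 of 3035), so lists of this size may hold none. None of the 9 imprinted genes read had a promoter with a member, and their median was 24.8% (10.9% without CCGG cytosines), which was the level of Gnas, the gene of the G protein alpha subunit Gs. Igf2r, the receptor that clears IGF2, varied between 2.61% and 81.3% over the samples. None of the promoters of 11 ribosomal protein genes, 10 Hox genes, 6 housekeeping genes, and 6 genes on a list of tumor suppressors silenced in oral cancer held a member. Their medians were 4.18%, 6.32%, 3.42% and 5.28%, and without CCGG cytosines 0.13%, 2.36%, 0.131% and 0.526% in the same order. In gene bodies, where 7.53% of all covered positions were members, they made up 21.1% of the 90 covered positions of collagen genes, 29.7% of 37 in germline genes and 33.3% of 24 in squamous epithelium genes. The shares were 10.3% of 39 in skeletal muscle genes, 2.56% of 39 in brain genes and 3.41% of 88 in imprinted genes, and 0 of 18 positions in blood cell genes was a member. In the bodies of Hox genes none of 81 covered positions was a member, nor was any of 59 in ribosomal protein genes. All these counts include promoter positions that lie within a gene, such as the 4 Tuba3b members in the germline genes. Positions further from starts were not counted apart.

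Treatment was compared position by position over all 37218 covered positions, by logistic regression on the reads with a call at q < 0.01 and a pooled difference over 10 points. This regression pools the reads of a group, so it takes in counting error and not the spread between samples. The rule used these samples and caps a member's difference near 20 points, so the members' counts are given beside the background and nothing is read from them. DBP against DMSO gave 22 calls (0.0591% of positions), 1 of them a member. DBP_agent against DBP gave 662 (1.78%), with 10 members, and DBP_BR against DBP gave 1125 (3.02%), with 19 members. These last comparisons share the DBP samples. edgeR's quasi-likelihood test, which takes account of the spread between samples, made 0 calls in each comparison at the same q and difference, with 967, 1405 and 1576 positions at an unadjusted p under 0.05.

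The member called for DBP lay between genes at chr9:91965555-91965555, 179340 bp from the nearest start, that of Plscr1, a phospholipid scramblase. It was at 98.5%, 98.6% and 95% in DMSO and at 83.3%, 86.8% and 83.3% in DBP. It was at 87.6%, 94.3% and 91.7% in DBP_agent and at 87.5%, 92.2% and 96.4% in DBP_BR. The DBP samples were all below the DMSO samples, which is a description, since these percentages chose the position. No member was called by edgeR, by the F test with overdispersion per position, or by logistic regression without DBP sample 1, DMSO sample 1 or DMSO sample 2. The F test also recovered 0 of 200 changes in simulated data, so its lack of a call says nothing about this member. edgeR made 0 calls at any covered position in this comparison.

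Among the members called for DBP_agent against DBP, the smallest p belonged to a position in an intron of Nphp4 at chr4:151861434-151861434. It was at 99.6%, 100% and 100% in DBP_agent and at 90.7%, 86.4% and 82.9% in DBP. It was at 97.9%, 95% and 100% in DMSO, so DBP_agent overlapped DMSO there. The next were in an intron at chr1:137361216-137361216, where Ipo9 has the nearest start (pooled difference 11.4 points), and in a coding exon at chr7:52632386-52632386 near Snrnp70 (98.4% against 85.1%). Another lay between genes, 286379 bp from the nearest start, that of an Nphp4 transcript, and there DBP_agent was lower (86.8% against 100%). For DBP_BR against DBP, a position in no gene at chr1:49992178-49992178 was at 97.3% against 83.6%, and others near 4933427D06Rik (99.3% against 89.6%), Gm10176 (95.7% against 85.0%) and 5930434B04Rik (100% against 89.6%) were higher too. A position 50852 bp from the start of Txnl1 was among the calls of both: it averaged 82.7% in DBP, 93.3% in DBP_agent and 94.4% in DBP_BR.

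The share of covered positions at 80% or more was counted per sample, over all positions and not over members. It was 21.9% ± 0.388 in DMSO, 22.1% ± 0.328 in DBP, 22.3% ± 0.515 in DBP_agent and 22.0% ± 0.631 in DBP_BR (SD, n = 3). DBP minus DMSO was 0.141 points (exact permutation test, two-sided, p = 0.8), DBP_agent minus DBP was 0.276 points (p = 0.6, same exact test) and DBP_BR minus DBP was -0.0107 points (p = 1, same exact test). With 3 samples against 3 this test cannot go below 0.10. No difference was larger than the spread between samples.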

How the data were processed

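ERRBS libraries of 12 samples in 4 groups were analysed. Per the labels and the study's methods, DNA was cut with MspI, fragments of 70 to 320 bp were selected, converted with bisulfite, amplified by 18 cycles of PCR and read for 50 bases. The authors trimmed reads with Trim Galore 0.3.3 and mapped them to mm9 with Bismark 0.10.1. The authors deposited, for each CpG cytosine on each strand, the counts of methylated and unmethylated reads, without normalization. The percent column that the authors deposited was left aside, since it matched these counts in 12 of 12 files. Duplicate reads and sequence differences between the mouse strain and mm9 cannot be recognised from these counts.

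Positions were kept per strand and unscaled. Genes came from GENCODE vM1 and sequence from the mm9 genome. Repeats were not analysed here. The members, the gene lists and the alternatives were chosen with earlier results of these data known. Genes named were those with methylated promoters, the 5 largest runs, the 5 genes with the most members, the values nearest the limit and the members called with the smallest p, 5 per comparison.

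Calculations used Python 3.11.15 with NumPy 2.4.6, pandas 2.3.3 and SciPy 1.17.1, and edgeR 4.0.16 in R 4.3.3. Calls came from logistic regression on read counts, tested by likelihood ratio, with p-values adjusted over 37218 positions by Benjamini-Hochberg. Tested on simulated data for DBP versus DMSO at 37218 positions, it recovered 94 of 100 positions changed by 40 points. It recovered 52 of 100 changed by 20 points, with 2 false calls. On the same data edgeR recovered 84 and 47, and an F test with overdispersion per position recovered 0. The simulated counts were binomial draws, with no spread between samples beyond counting error. The 2 false calls therefore cannot give the rate of false calls in the real data. Samples with the same replicate number did not deviate together, so no pairing was used. Confidence intervals are 95% Wilson intervals and floors are 3 counts. Depth was 3287367 to 78889043 calls per sample. Alternatives changed the coverage minimum, the thresholds, the strands, the promoter, the test and the samples included. Positions of the X chromosome were outside the rule.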

Additional observations from a re-analysis of the deposited data

Results flagged for a closer look

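The X chromosome lies outside the rule and was set apart because it held the same kind of position. Of 852 positions with 10 or more reads in all 12 samples, 118 were at 80% or more in every sample, or 13.8% (Wilson interval 11.7 to 16.3), against 8.71% on the autosomes, and above the 0.352% that a count of 0 would allow.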

How the results depend on the processing

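The share of members in promoters (4.66%) stayed below that of all covered positions, 43.2% to 60.4%, under each alternative in the coverage minimum, threshold, strands, promoter definition and samples. It was 3.13% at a threshold of 90%, 2.93% with promoters of 500 bp, 2.47% with the most upstream start only and 5.89% without CCGG cytosines, and 4.49% to 5.09% when a sample was left out. The 3240 members became 7879 at 5 reads, 768 at 20 reads, 5922 at 70%, 447 at 90% and 1478 without CCGG cytosines. Leaving out a sample gave 3312 to 4971, the most without DMSO replicate 3, the shallowest library, which raised the covered positions from 37218 to 59732. In place of 2 methylated promoters there were 5 at 5 reads, 12 at 70%, 0 at 90% and 0 when 5 positions were required. At 20 reads there was 1, that of 4933415F23Rik, and neither Tuba3b nor Sohlh2 was counted. Without a sample there were 2 to 6 (5 without DMSO replicate 3, 4 without DBP replicate 3, 6 without DBP_BR replicate 1). Clustering (51.7%) was 49.1% beyond 50 bp and 53.4% without CCGG cytosines.

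The 22, 662 and 1125 calls became 11, 119 and 293 at a difference over 25 points, 113, 1489 and 2202 at q under 0.05, and 248, 3649 and 4300 with coverage scaled to the highest median. They were 0, 0 and 0 by edgeR and 0, 0 and 0 by the F test (431, 926 and 1247 positions at an unadjusted p under 0.05), which also made no call on simulated data. Without CCGG cytosines there were 24, 353 and 632. Leaving out a sample gave 3 to 44, 352 to 1408 and 657 to 1866. The lowest were without DBP replicate 1 (3, 352 and 657) and the highest without DMSO replicate 1, DBP_agent replicate 1 and DBP_BR replicate 3, and 9 remained for DBP against DMSO without DMSO replicate 2. With the replicate number as a block there were 24, 758 and 1017 calls, which moved no count by over 1.5 times, and same-numbered samples did not deviate together. The DBP minus DMSO share (0.141 points) turned to -0.152 points at a threshold of 90% and to -0.00537 points without DBP replicate 1, with 0.362 points the highest without a sample, and it stayed at 0.141 points when paired by replicate number (replicate block, exact p = 0.5). The causes of these shifts were not tested. Depth limits single positions, since the median member had 17 to 32 reads in the DMSO and DBP samples.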

Other observations

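The positions of the mitochondrial genome belong to no comparison above. Their reads were 9.06%, 11.4% and 12.4% methylated in DMSO, 3.92%, 16.8% and 14.3% in DBP, 16.9%, 14.8% and 13.3% in DBP_agent, and 13.8%, 12.1% and 13.9% in DBP_BR. DBP sample 1 was the lowest, with 207 of 5274 reads (Wilson interval 3.43 to 4.48). Reads inside and outside CCGG are not given apart here, so the part of CCGG cytosines in these levels is not known.

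No promoter of the 1106 olfactory and 321 vomeronasal receptor genes on the autosomes was read. In their bodies members made up 4 of 9 and 2 of 6 covered positions, against 7.53% over all protein-coding genes, and these counts are too small to compare.

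The CCGG cytosines also changed how promoters were classed. With them, 424 of 3035 promoters were at 20% or less at all positions in all samples, and without them 2167 of 2598 were (83.4%), while the median of the promoter means went from 4.99% to 0.349%. At the high end, promoters with a member went from 54 to 27 and those with a mean of 80% or more from 53 to 27. Promoters left with under 3 positions, such as that of Sohlh2, were no longer read, so these falls include promoters that dropped out. The number of fully methylated promoters was 2 both ways, with Tuba3b in both and Sohlh2 replaced by Ccdc85a.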
